A study of Homo sapiens with 18 samples.

Results

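Human HEK293T cells carrying the empty pLEX vector were compared at 24 h and at 12 h of transfection. The 6 libraries were 3 labelled pLEX, DMSO, 24 h and 3 labelled pLEX, DMSO, 12 h, out of 18 libraries in the series, and they were chosen by these labels alone. HEK293T is an embryonic kidney line that takes up plasmid DNA readily. The labels give its genotype as WT, the vehicle as DMSO and the growth medium as high-glucose DMEM with serum. The series also held cells transfected with MethionaseNLS, a methionine-degrading enzyme with a nuclear localisation signal, in DMSO at 24 h and at 12 h, and either vector at 24 h with 5 µM of the VPS34 kinase inhibitor Vps34IN1 given for 12 h. Each of these 6 groups had 3 libraries. In the study the empty vector cells are the controls of the methionase cells, and the time comparison shows what moved in them without the enzyme. The labels name no untransfected cells and no empty vector library before 12 h. Hours since transfection, hours in culture, age of the medium, time in DMSO and time of harvest therefore cannot be told apart.

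Cells of this line divide through the hours after plating and transfection, and use up glucose, amino acids and oxygen in their medium as they do so. Whether this took place in the cells compared here was not tested. Several well-known programmes answer to stress, nutrients, oxygen, growth signals or the cell cycle. Heat shock factor drives chaperone genes, ATF4 drives amino acid transport and synthesis genes, and hypoxia-inducible factor drives genes of glycolysis and vessel growth. Growth factor signalling switches on immediate early genes within minutes, and the genes of mitosis are transcribed in the late part of each cell cycle.

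Poly-A RNA was sequenced, and read counts per gene were recovered exactly from the deposited values. Totals were 20442260 to 20825232 reads in the 24 h libraries and 20612505 to 20777258 reads in the 12 h libraries. Levels are given below as normalised reads, which are counts divided by a library's size factor and are not per length. Differences are log2 values on the deposited variance-stabilised scale, 24 h minus 12 h, and understate the change of genes with few reads. Of 15 markers of this kidney line, 13 had a mean of at least 10 reads at 24 h and 14 at 12 h, with sums of 25277.8 to 26979.0 reads at 24 h and 25548.8 to 29584.5 reads at 12 h. Markers of leukocytes summed to 212.0 to 218.7 reads at 24 h and 149.3 to 178.1 reads at 12 h, with 3 of 8 at a mean of 10 or more. Fibroblast markers summed to 555.6 to 668.6 reads at 24 h and 577.1 to 598.9 reads at 12 h, squamous markers to 313.4 to 336.9 reads at 24 h and 307.1 to 351.5 reads at 12 h, and hepatocyte markers to 14.9 to 22.8 reads at 24 h and 9.3 to 16.7 reads at 12 h. The defining markers COL1A2, FGB, KRT14 and KRT6A were at 0 in both groups, and CD3E was at 0 at 12 h. Whether other cells had a part in any result was not tested. In such bulk samples, fewer cells of a kind and less RNA per cell cannot be told apart.

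Of 17755 genes tested, 818 were higher at 24 h (4.61%) and 1221 were lower (6.88%), at a Benjamini-Hochberg adjusted p below 0.05 in limma. Together these were 2039 genes (11.5%), and in 2011 of them the 24 h libraries did not overlap the 12 h libraries, against 36.1% of all genes tested (15.7% higher and 20.4% lower). The shares of 4.61% higher and 6.88% lower are the background for each count of list members below. The median size of a called difference was 0.30 on the log2 scale, and 16 called genes passed a log2 difference of 1, 3 of them higher and 13 lower. Voom on the recovered counts, which compresses genes with few reads less, gave 278 past a difference of 1. The 13 were the near copy EIF3CL and 12 pseudogenes. The differences of all genes lay between -0.26 and 0.27 from their 5th to their 95th percentile. Among the 6 libraries the first principal component held 53% of the variance and placed the 24 h libraries at 9.43 to 12.69 and the 12 h libraries at -13.93 to -9.3. The counts depended on single libraries. Leaving out replicate 1 at 24 h left 278 higher and 520 lower, and leaving out replicate 3 at 12 h left 300 higher and 533 lower. Without replicate 2 at 12 h the counts were 409 and 619, without replicate 2 at 24 h 538 and 912, and without replicate 3 at 24 h 538 and 718.

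**Figure D1:**
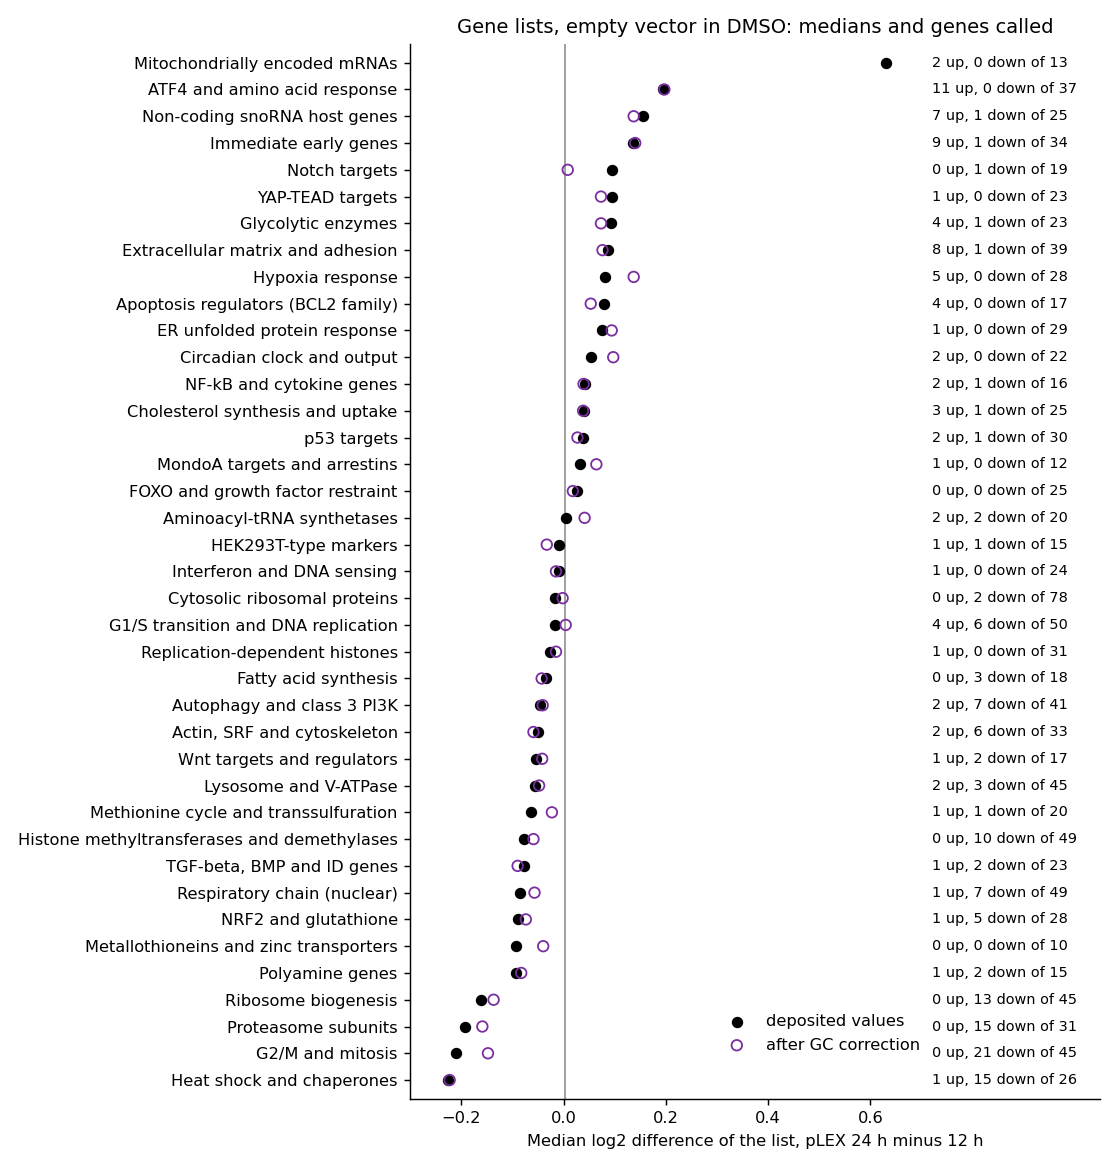
Median log2 difference of each gene list, pLEX 24 h minus 12 h, with filled points for the deposited values and open circles after correction for G+C content, and the numbers called higher (up) and lower (down) at the right. Heat shock, mitotic, proteasome and ribosome biogenesis genes have the lowest medians, at -0.23 to -0.16, and the median of the mitochondrially encoded mRNAs is 0.63, or 0.33 to 0.82 when a library is left out.

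Of 26 tested genes for heat shock proteins and their partners, 15 were lower and 1 was higher, and 23 lay below 0, against 6.88% lower and 4.61% higher among all genes, with a median of -0.23 against 0.00 for all genes tested. HSP90AA1, the stress-inducible cytosolic HSP90, had 26736, 27432 and 27421 normalised reads at 24 h, against 40040.2, 42218 and 38562 at 12 h. Every 24 h library was thus below every 12 h library. The log2 difference was -0.56 (SE 0.10, adjusted p = 0.001194). HSPH1, a large HSP70-family protein that recharges HSP70, had 2487, 2589 and 2657 reads at 24 h, against 3569, 3926 and 3989.7 at 12 h. The groups were again separate, with a difference of -0.55 (SE 0.06, adjusted p = 2.33e-06). The HSP90 partner CHORDC1 had 1075, 1214 and 1235 reads at 24 h, against 1661, 1724 and 1858 at 12 h (-0.54, SE 0.08, adjusted p = 0.0001016). STIP1, the adaptor that hands clients from HSP70 to HSP90, had 6093, 5989.7 and 6234 reads at 24 h, against 8388, 8344 and 8001 at 12 h (-0.43, SE 0.06, adjusted p = 0.0001664). All 4 remained lower when any of the 6 libraries was left out.

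Lower members included parts of the mitochondrial and cytosolic folding machines. HSPE1 and HSPD1, the 2 parts of the mitochondrial chaperonin, differed by -0.51 (adjusted p = 0.01775) and -0.31 (adjusted p = 0.02152). TCP1, a subunit of the cytosolic chaperonin, differed by -0.31 (adjusted p = 0.002978) and HSPA4 by -0.32 (adjusted p = 0.001766). The constitutive HSP90AB1 had 36407, 38908 and 35978 reads at 24 h, against 46452, 47229.8 and 43859.6 at 12 h (-0.31, adjusted p = 0.02047), and HSPA4, HSPD1, HSPE1, TCP1 and HSP90AB1 were picked after their values were seen. HSPE1 lost its call without replicate 2 at 12 h and without replicate 1 or 3 at 24 h, with adjusted p up to 0.07826. HSPD1 lost it in these fits and without replicate 3 at 12 h, with adjusted p up to 0.1101. HSP90AB1 lost it without replicate 1 or 2 at 12 h and without replicate 1 or 3 at 24 h, with adjusted p up to 0.08708, while HSPA4 and TCP1 kept theirs in all 6 fits. HSPA8, the abundant constitutive HSP70, did not pass the test, with 16124, 17663 and 19103 reads at 24 h, against 16061, 19107 and 23219 at 12 h (-0.13, adjusted p = 0.5856). HSPA1B (-0.26, adjusted p = 0.4408), DNAJB1 (-0.20, 0.7856), HSPB1 (-0.04, 0.8831) and the heat shock factor gene HSF1 (0.02, 0.9088) did not pass either. These were also picked after their values were seen. The higher member was CRYAB, a small heat shock protein, at 7.30, 6.50 and 12.0 reads at 24 h, against 2.80, 0 and 0 at 12 h, which is too low at 12 h for a fold. The number of lower members was 6 without replicate 2 at 12 h or without replicate 1 at 24 h, 8 without replicate 3 at 24 h, 9 without replicate 3 at 12 h, and 12 in the other fits that left out a library. It was 10 after quantile normalization.

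All 31 tested genes for subunits of the proteasome lay below 0, 15 were called lower and none higher, with a median of -0.19. The proteasome is the chamber that degrades ubiquitin-tagged proteins, and its regulatory cap recognises and unfolds them. PSMD1, a scaffold of the cap, had 2707, 2852 and 2894 normalised reads at 24 h, against 3427, 3612 and 3667 at 12 h. The difference was -0.33 (SE 0.07, adjusted p = 0.00405), with no overlap. PSMD2, another cap scaffold, had 4427, 4615 and 4505 reads at 24 h, against 5397, 5793 and 5602 at 12 h (-0.30, adjusted p = 0.005297). The cap subunit PSMD6 had 2219, 2276 and 2438 reads at 24 h, against 2703, 3047 and 2744 at 12 h (-0.28, adjusted p = 0.004022). PSMA3, of the outer ring of the chamber, had 2104, 2218 and 2084 reads at 24 h, against 2546, 2603 and 2540.4 at 12 h (-0.26, adjusted p = 0.005794). These 4 kept their call when any library was left out. The count of lower subunits was 5 without replicate 2 at 12 h or replicate 1 at 24 h, 6 without replicate 2 at 24 h, 8 without replicate 3 at either time and 9 without replicate 1 at 12 h. Quantile normalization left 6.

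Of 45 tested genes for the G2 phase and mitosis, 21 were lower and 0 higher, and 38 lay below 0, with a median of -0.21. DLGAP5, a spindle protein that stabilises kinetochore fibres, had 1643, 1801 and 1856 normalised reads at 24 h, against 2397, 2622 and 2404 at 12 h (-0.47, SE 0.07, adjusted p = 8.553e-05). The kinesin KIF20A, which acts in cytokinesis, had 1439, 1489 and 1485 reads at 24 h, against 1878, 1951 and 1896 at 12 h (-0.36, SE 0.06, adjusted p = 0.0004097). BUB1, a kinase of the spindle checkpoint, had 2413, 2680.0 and 2561 reads at 24 h, against 3097, 3413 and 3196 at 12 h (-0.33, adjusted p = 0.0007953). In these 3 genes each 24 h library was below each 12 h library, and the call held without any library. Cyclin B1 (CCNB1), the partner of the mitotic kinase, had 3431, 3645 and 3569 reads at 24 h, against 4267, 4298 and 4575 at 12 h (-0.30, adjusted p = 0.003997). CDC20, which activates the anaphase ubiquitin ligase, had 2631, 2729 and 2906 reads at 24 h, against 3378, 3548 and 3422 at 12 h (-0.32, adjusted p = 0.003214). The kinase CDK1 did not pass, at 3454, 3658 and 3421 reads at 24 h, against 3697, 3795 and 3740.1 at 12 h (-0.09, adjusted p = 0.3418), and CCNB1, CDC20 and CDK1 were picked after their values were seen. The list held 10 lower members without replicate 2 at 12 h, without replicate 1 at 24 h or after quantile normalization, 11 without replicate 3 at 12 h and 14 without replicate 2 at 24 h. The mitotic genes are low in G+C, with a median of 42.6% against 48.5% for all coding genes tested, and after a correction for G+C content the list had 15 lower and 0 higher members.

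Many mitotic promoters carry a cell cycle homology region, whose core reads TTTGAA and is bound by the MuvB complex. The letters TTTGAA were searched on both strands between 250 bases before and 50 after each start, in RefSeq promoters of build GRCh38.p14. They stood in 27 of 38 promoters of the mitotic list (71.1%), against 9.66% of the 12911 promoters of tested genes. Among genes called lower the share was 13.8%, and among genes called higher 7.17%. The 27 are more than the 21 lower members of the list, so members that were not called held the letters too. Lower members without them included BUB1, CCNB1 and KIF20A. The share thus describes the list and does not set its lower members apart. Windows of 100 bases from 3 lower members show, in capitals, the match nearest the start, which was chosen for being nearest. The promoter of DLGAP5 held 3 matches, that of KIF20B 2 and that of KIF14 1. DLGAP5 is read from chr14:55191556-55191655 on the minus strand, KIF20B, a kinesin of late mitosis, from chr10:89701520-89701619 on the plus strand, and KIF14, a cytokinesis kinesin, from chr1:200620722-200620821 on the minus strand. In KIF14 the core is on the opposite strand and so reads TTCAAA. A match of letters is a description and not a binding site.
DLGAP5: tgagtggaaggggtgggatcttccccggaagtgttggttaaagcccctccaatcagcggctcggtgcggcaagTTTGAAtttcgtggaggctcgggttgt
KIF20B: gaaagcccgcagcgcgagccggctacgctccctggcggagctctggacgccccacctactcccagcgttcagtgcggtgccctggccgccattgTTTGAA
KIF14: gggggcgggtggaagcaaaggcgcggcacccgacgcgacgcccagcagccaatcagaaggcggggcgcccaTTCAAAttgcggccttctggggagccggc

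KIF20B had 1113, 1142 and 1108 normalised reads at 24 h, against 1449.8, 1485 and 1426 at 12 h (-0.35, SE 0.06, adjusted p = 0.0009206), and KIF14 differed by -0.40. Of 50 tested genes for entry into S phase and for copying DNA, 4 were higher and 6 lower. Among all genes tested the shares were 4.61% higher and 6.88% lower. The median of the S phase list was -0.02, and 0.05 after quantile normalization. The higher members numbered 0 without replicate 2 at 12 h or replicate 1 at 24 h, 1 without replicate 3 at 12 h, 2 without replicate 2 or 3 at 24 h and 3 without replicate 1 at 12 h. The lower members numbered 4 to 6 in these fits. POLA1, the catalytic subunit of the polymerase that starts each DNA strand, had 1994, 1976 and 1945 reads at 24 h, against 2513, 2602 and 2476 at 12 h (-0.35, adjusted p = 0.0007731). MCM6, of the replicative helicase, had 4822, 5090.4 and 4664 reads at 24 h, against 5581, 5949.7 and 5804 at 12 h (-0.25, adjusted p = 0.004899). The kinase CDK6, which acts in G1, had 1324, 1416 and 1343 reads at 24 h, against 1799, 1634 and 1816 at 12 h (-0.34, adjusted p = 0.004952). On the higher side, CDT1, which loads the helicase onto origins, had 4629, 4562 and 3638 reads at 24 h, against 3675, 2945 and 3247 at 12 h (0.37, adjusted p = 0.01288), with an overlap of the groups. CDT1 lost its call without replicate 2 or 3 at 12 h and without replicate 1 or 2 at 24 h, with adjusted p of 0.05476 to 0.08858. Of 31 replication-dependent histone genes, which are read out poorly in poly-A RNA, 1 was higher and 0 lower.

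**Figure D2:**
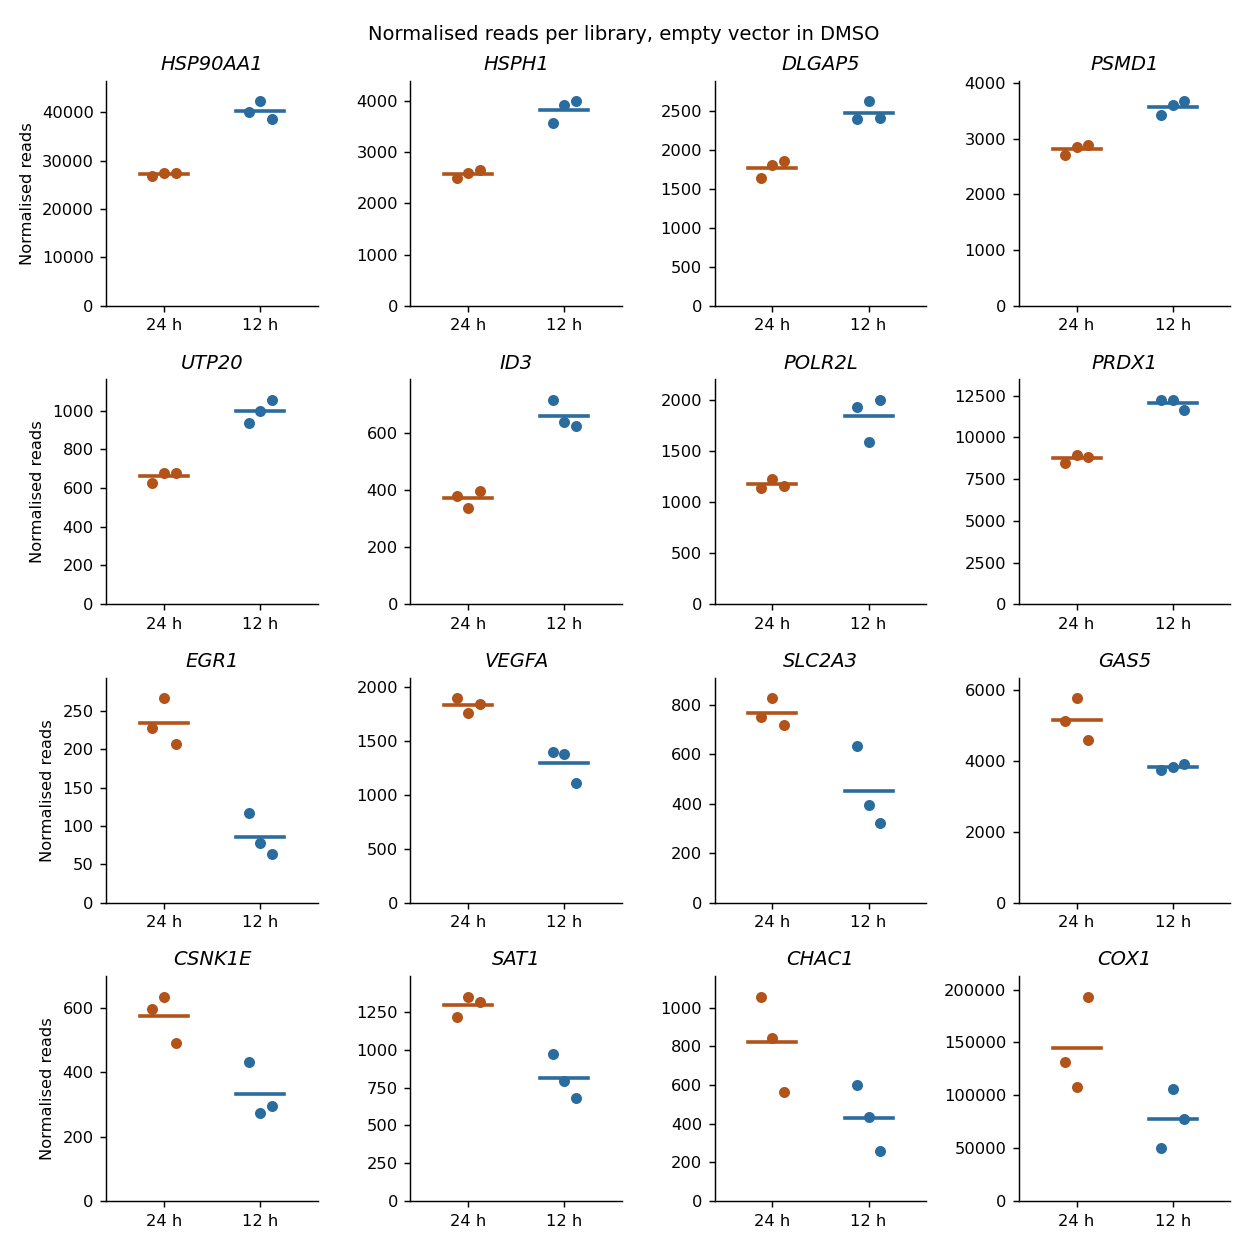
Normalised reads of 16 genes in each library of empty vector cells, on linear axes that start at 0, with 24 h left of 12 h; points are libraries and lines are means of 3. The genes of the upper 2 rows are lower in every 24 h library; below them, CHAC1 is the gene whose groups overlap.

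Of 45 tested ribosome biogenesis genes, 13 were lower and 0 higher, with a median of -0.16. UTP20, a factor of the small-subunit precursor, had 626, 676 and 680.2 normalised reads at 24 h, against 937, 999 and 1056 at 12 h (-0.54, SE 0.08, adjusted p = 0.0001664). UBTF, which opens ribosomal DNA for RNA polymerase I, had 2618, 2746 and 2644 reads at 24 h, against 3219, 3438 and 3618 at 12 h (-0.35, SE 0.05, adjusted p = 0.0002299). LYAR, a nucleolar protein, had 1105, 1059 and 1047 reads at 24 h, against 1493, 1359.9 and 1318 at 12 h (-0.35, adjusted p = 0.001622). In all 3 genes the groups were separate and the call held without any library. RRN3, the polymerase I initiation factor, had 4.60, 5.60 and 4.60 reads at 24 h, against 30.7, 31.9 and 32.5 at 12 h, and its assignment is uncertain because pseudogene copies share its sequence. FBL, which methylates ribosomal RNA, did not pass (0.05, adjusted p = 0.7089). Of 78 cytosolic ribosomal protein genes, 0 were higher and 2 lower, with a median of -0.02. The biogenesis list held 7 lower members without replicate 2 at 12 h or replicate 1 at 24 h, and 9 without replicate 3 at either time.

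ATF4 is the transcription factor that is translated when amino acids run short or the eIF2 kinases are active. Of 37 tested genes that answer to ATF4 and to amino acid shortage, 11 were higher and 0 lower, and 35 lay above 0, with a median of 0.19. SLC1A4, a carrier of alanine, serine and cysteine, had 1177, 1089 and 916 normalised reads at 24 h, against 844, 775 and 683 at 12 h (0.42, SE 0.10, adjusted p = 0.006994). TRIB3, a pseudokinase that restrains ATF4, had 1131, 1133 and 799 reads at 24 h, against 759.8, 547 and 572 at 12 h (0.64, SE 0.15, adjusted p = 0.00811). SHMT2, the mitochondrial serine hydroxymethyltransferase, had 11556, 11469.7 and 10632 reads at 24 h, against 9686, 9256 and 8761 at 12 h (0.28, SE 0.07, adjusted p = 0.009141). In SLC1A4, TRIB3 and SHMT2 the 24 h libraries were above the 12 h libraries. CHAC1, which breaks down glutathione, had 1059, 842 and 567 reads at 24 h, against 602, 435 and 258 at 12 h (0.84, SE 0.20, adjusted p = 0.008925), so replicate 3 at 24 h was below replicate 1 at 12 h. ATF3, a stress-induced factor downstream of ATF4, had 2744, 2834 and 2023 reads at 24 h, against 2019, 1241 and 953 at 12 h (0.86, SE 0.22, adjusted p = 0.01432), and 2023 reads at 24 h stood just above 2019 reads at 12 h.

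These calls rested on 2 libraries. Without replicate 3 at 12 h, or without replicate 1 at 24 h, no ATF4 list member was called. The adjusted p of CHAC1 was then 0.09145 and 0.08063, and that of TRIB3 0.05139 and 0.05921. That of SLC1A4 was 0.0605 and 0.06301, that of SHMT2 0.06642 and 0.05902, and that of ATF3 0.1185 and 0.07223. ATF3 also lost its call without replicate 2 at 12 h (0.05768) or at 24 h (0.05547). The median of the list stayed at 0.14 and 0.15. Without replicate 2 at 12 h or at 24 h, 5 members were called, and without replicate 1 at 12 h or replicate 3 at 24 h, 12 were called. ATF4 itself had 28848, 28415 and 29001 reads at 24 h, against 28170.0, 26582 and 22339 at 12 h (0.17, adjusted p = 0.204), and ASNS, the asparagine synthetase that is a classical target, had 236, 173 and 169 reads at 24 h, against 165, 189.7 and 121 at 12 h (0.20, adjusted p = 0.3868). Both were picked after their values were seen. MAT2A, the enzyme that makes S-adenosylmethionine from methionine, did not pass, with 5167, 4844 and 6405 reads at 24 h, against 3759, 5199 and 5203 at 12 h (0.21, adjusted p = 0.4519).

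The composite element bound by ATF4 with C/EBP partners was searched as TGATGNAAN on both strands in the same promoter windows. It stood in 5 of 30 promoters of the ATF4 list (16.7%), against 1.77% of the promoters of all genes tested and 1.5% of those of genes called higher. Most called members with a promoter in the search lacked the element, namely TRIB3, DDIT3, PCK2, SLC1A4, CEBPB and CEBPG. Those that held it were CHAC1, ATF3 and SLC3A2. Windows from the first 2 of these show the matching letters in capitals, on the opposite strand in CHAC1 (chr15:40953221-40953320, plus strand) and on the gene's strand in ATF3 (chr1:212565170-212565269, plus strand).
CHAC1: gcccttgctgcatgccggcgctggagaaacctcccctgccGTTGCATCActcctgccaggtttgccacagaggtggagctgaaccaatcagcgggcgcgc
ATF3: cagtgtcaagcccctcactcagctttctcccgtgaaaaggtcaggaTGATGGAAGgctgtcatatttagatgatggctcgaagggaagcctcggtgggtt

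Of 34 tested immediate early genes, 9 were higher and 1 was lower, with a median of 0.14. EGR1, a zinc finger factor induced by growth factor signalling, had 228, 267 and 208 normalised reads at 24 h, against 117, 78.0 and 63.1 at 12 h (0.98, SE 0.12, adjusted p = 1.591e-05). IER2, a small nuclear protein of the same class, had 925, 944 and 975 reads at 24 h, against 706, 678 and 676 at 12 h (0.42, SE 0.06, adjusted p = 0.0001018). ETV5, an ETS factor induced through ERK, had 51.0, 55.8 and 37.8 reads at 24 h, against 25.1, 13.1 and 14.8 at 12 h (0.56, SE 0.11, adjusted p = 0.001859). The groups were separate in all 3 genes, and the calls held without any library. FOS did not pass, at 108, 112 and 98.8 reads at 24 h, against 144, 56.4 and 49.2 at 12 h (0.28, adjusted p = 0.4424), where replicate 1 at 12 h was the highest of the 6. JUN did not pass either (0.24, adjusted p = 0.2783), and both were picked after their values were seen. The lower member was MYC, at 4167, 4267 and 4344 reads at 24 h, against 5295, 4805 and 4796 at 12 h (-0.22, adjusted p = 0.04433), which lost its call when any one of the 6 libraries was left out, with adjusted p of 0.07635 to 0.1667. The list held 3 higher members without replicate 2 or 3 at 12 h and without replicate 1 or 2 at 24 h, and 5 without replicate 3 at 24 h. After quantile normalization it held 4.

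Of 28 tested hypoxia response genes, 5 were higher and 0 lower, with a median of 0.08 that was 0.03 without replicate 3 and 0.15 without replicate 1 at 12 h. VEGFA, the vessel growth factor, had 1895, 1755 and 1845 normalised reads at 24 h, against 1398, 1374 and 1106 at 12 h (0.48, SE 0.08, adjusted p = 0.0003651). PDK1, a kinase that inhibits pyruvate dehydrogenase, had 1385, 1645 and 1381 reads at 24 h, against 1243, 1057 and 929 at 12 h (0.43, SE 0.09, adjusted p = 0.00362). Both were separate between the times and kept their call without any library. NDRG1, a stress-responsive gene, had 3914, 4387 and 3774 reads at 24 h, against 3608, 2549 and 2401 at 12 h (0.50, adjusted p = 0.008563), and its adjusted p was 0.05419 without replicate 2 and 0.07898 without replicate 3 at 12 h. BNIP3, ADM and HK2 were picked after their values were seen and did not pass, with differences of 0.29, -0.01 and 0.23. Among 23 genes of glycolysis and glucose uptake, 4 were higher and 1 was lower. The glucose carrier SLC2A3 had 750.2, 826 and 718 reads at 24 h, against 634, 393 and 320.1 at 12 h (0.72, SE 0.15, adjusted p = 0.003314), and was above in every 24 h library. The lactate carrier SLC16A1 was lower, at 5556, 5625 and 5545 reads at 24 h, against 6462, 6606 and 6753 at 12 h (-0.24, adjusted p = 0.01175), and lost its call without replicate 3 at 12 h (0.06079) or replicate 1 at 24 h (0.05249). Without replicate 3 at 12 h the hypoxia list held 2 higher members, and without replicate 2 at 12 h it held 3. It held 8 without replicate 1 at 12 h. The glucose list held 1 higher member without replicate 2 or 3 at 12 h and without replicate 1 or 2 at 24 h.

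Mitochondrial rRNA took 0.48% to 0.657% of reads at 24 h and 0.206% to 0.292% at 12 h, with no overlap. Mitochondrial mRNA took 2.25% to 3.90% at 24 h and 1.21% to 2.41% at 12 h, ranges that overlap. The RNA of the large mitochondrial ribosomal subunit, RNR2, had 85033, 81838 and 108555 normalised reads at 24 h, against 32070.3, 46679.5 and 34003 at 12 h (1.29, SE 0.20, adjusted p = 0.0001812). RNR2 was one of the 3 increases past a log2 difference of 1, and its call held without any library. Of 12 tested mitochondrial tRNA genes, 8 were higher. Since poly-A RNA was sequenced, such reads need not give the level of mature tRNA or rRNA. Which form of these RNAs they came from was not tested. TRNL1, a leucine tRNA next to RNR2, had 201, 244 and 294 reads at 24 h, against 53.9, 143 and 93.7 at 12 h (0.95, SE 0.20, adjusted p = 0.003418). The 13 mitochondrially encoded mRNAs all lay above 0, with a median of 0.63, and 2 of them passed. The median was 0.33 without replicate 1 at 12 h, 0.42 without replicate 3 at 24 h and 0.82 without replicate 2 at 12 h. COX1, a core subunit of cytochrome oxidase, had 131439, 107886 and 193386 reads at 24 h, against 49958, 106092 and 77314 at 12 h (0.91, SE 0.24, adjusted p = 0.016). Its adjusted p was 0.09879 without replicate 1 at 12 h, 0.05234 without replicate 3 at 12 h and 0.09805 without replicate 3 at 24 h. ND5, of respiratory complex I, had 26597, 26119 and 39092 reads at 24 h, against 11758, 24151 and 18938 at 12 h (0.78, adjusted p = 0.0404). It lost its call without any one library except replicate 2 at 12 h, with adjusted p of 0.05009 to 0.217. Replicate 3 at 24 h was the highest library in both mRNAs and replicate 1 at 12 h the lowest. No mRNA of the list was called without replicate 1 or 3 at 12 h or without replicate 3 at 24 h, 1 was called without replicate 1 or 2 at 24 h, 3 without replicate 2 at 12 h, and 9 in a fit of these 6 libraries alone.

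Of 49 tested nuclear genes of the respiratory chain, 1 was higher and 7 were lower, with a median of -0.09. NDUFB8, an accessory subunit of complex I, had 4401, 4529.7 and 4531 normalised reads at 24 h, against 5522, 5466 and 5519 at 12 h (-0.29, SE 0.06, adjusted p = 0.002169). The count of lower members was 3 without replicate 1 at either time or without replicate 3 at 24 h, and 4 without replicate 3 at 12 h. Among 28 genes of the NRF2 and glutathione list, which serve antioxidant defence, 1 was higher and 5 were lower. PRDX1, an abundant peroxiredoxin that removes hydrogen peroxide, had 8475, 8924 and 8817 reads at 24 h, against 12246, 12254 and 11647 at 12 h (-0.46, SE 0.07, adjusted p = 0.000263). TALDO1, transaldolase of the pentose phosphate pathway, had 2747, 2909 and 2865 reads at 24 h, against 3689, 3452 and 3499.8 at 12 h (-0.31, adjusted p = 0.002099). GCLM, a subunit of the enzyme that starts glutathione synthesis, had 633, 651 and 629.5 reads at 24 h, against 794, 859 and 809 at 12 h (-0.33, adjusted p = 0.007869). These 4 genes were separate between the times and kept their calls without any library. The list held 3 lower members without replicate 3 at either time.

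Non-coding genes that host small nucleolar RNAs in their introns were higher in 7 of 25 tested and lower in 1. Their spliced RNAs carry short reading frames and are held low by decay that depends on translation. GAS5 had 5142, 5778 and 4582 normalised reads at 24 h, against 3746, 3841 and 3911 at 12 h (0.42, SE 0.10, adjusted p = 0.006331). SNHG29 had 11185, 12037 and 10289 reads at 24 h, against 9194, 8679 and 9225 at 12 h (0.30, SE 0.06, adjusted p = 0.002394). Both were higher in every 24 h library and kept their calls without any library. The lower one was DANCR, at 1687, 1723 and 1952 reads at 24 h, against 2093, 2073 and 2116 at 12 h (-0.22, adjusted p = 0.04504), which lost its call without any one library except replicate 3 at 24 h, with adjusted p of 0.08829 to 0.1968. Higher members numbered 3 without replicate 2 or 3 at 12 h or replicate 1 at 24 h.

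Genes of the extracellular matrix and adhesion were higher in 8 of 39 tested and lower in 1. L1CAM, a neural adhesion molecule, had 54.6, 66.0 and 62.8 normalised reads at 24 h, against 36.3, 29.1 and 37.1 at 12 h (0.38, SE 0.09, adjusted p = 0.006363). COL6A2, a chain of collagen VI, had 1427, 1379 and 1242 reads at 24 h, against 1128, 1009.6 and 929.7 at 12 h (0.38, SE 0.09, adjusted p = 0.00643). In both genes the groups were separate, and the adjusted p of COL6A2 was 0.05657 without replicate 3 at 12 h. The lower member was ITGB1, the main integrin beta chain, at 2109, 2188 and 2023 reads at 24 h, against 2344, 2435 and 2438 at 12 h (-0.18, adjusted p = 0.03012). ITGB1 was not called after a correction for G+C content or without replicate 2 or 3 at 12 h or replicate 1 or 3 at 24 h, with adjusted p of 0.09493 to 0.1244 in the last 4. Higher members numbered 1 without replicate 3 at 12 h, 2 without replicate 1 at 24 h and 3 without replicate 2 at either time.

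Enzymes that add or remove histone methyl groups were lower in 10 of 49 tested and higher in 0. SETD2, which trimethylates histone H3 at lysine 36, had 1418, 1496 and 1439 normalised reads at 24 h, against 1886, 1856 and 2121 at 12 h (-0.41, SE 0.08, adjusted p = 0.002247). KDM5B, a demethylase of histone H3 lysine 4, had 1797, 1790.1 and 1652 reads at 24 h, against 2118, 2211 and 2076 at 12 h (-0.28, SE 0.06, adjusted p = 0.002972). The groups were separate in both. Lower members numbered 2 without replicate 3 at 12 h or replicate 1 at 24 h, 4 without replicate 2 at 12 h or replicate 3 at 24 h, and 11 in the other fits that left out a library.

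Autophagy genes were lower in 7 of 41 tested and higher in 2, with a median of -0.05. PIK3C3, which encodes the VPS34 lipid kinase that the study inhibits in other groups, did not pass, with 658, 703 and 690.4 normalised reads at 24 h, against 673, 734 and 706 at 12 h (-0.04, SE 0.06, adjusted p = 0.7453). Its sign was positive after a correction for G+C content. Its partners in the class 3 PI3K complex did pass. BECN1 had 1281, 1138 and 1165 reads at 24 h, against 1447, 1571 and 1536 at 12 h (-0.33, SE 0.07, adjusted p = 0.002404), and PIK3R4, which encodes the VPS15 scaffold, had 935, 917 and 930.4 reads at 24 h, against 1061, 1151 and 1176 at 12 h (-0.26, SE 0.06, adjusted p = 0.00445). Lower members numbered 2 without replicate 1 at 24 h, 3 without replicate 2 at 12 h and 4 in each of the other fits that left out a library; after quantile normalization they numbered 3. Of 45 lysosome and V-ATPase genes, 2 were higher and 3 lower, against 4.61% higher and 6.88% lower among all genes tested. GAA, the lysosomal enzyme that breaks down glycogen, had 3905, 3646 and 3631 reads at 24 h, against 2807, 2625 and 2770.5 at 12 h (0.43, SE 0.09, adjusted p = 0.003634).

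The list counts that follow stand beside shares of 4.61% higher and 6.88% lower among all genes tested. Of 17 tested BCL2-family genes of apoptosis, 4 were higher and 0 lower, with a median of 0.08. The higher members numbered 1 without replicate 2 or 3 at 12 h or replicate 1 at 24 h, 2 without replicate 2 at 24 h, and 4 in the other fits that left out a library. Of 33 tested actin and cytoskeleton genes, 2 were higher and 6 lower, with a median of -0.05. The lower members numbered 1 without replicate 3 at 12 h, 3 without replicate 1 at 12 h and 2 in the other such fits. Genes of the methionine cycle and transsulfuration had 1 of 20 higher and 1 lower. Cholesterol genes had 3 of 25 higher and 1 lower, fatty acid synthesis genes 0 of 18 higher and 3 lower, aminoacyl-tRNA synthetases 2 of 20 higher and 2 lower, and genes of the unfolded protein response 1 of 29 higher and 0 lower. The p53 targets had 2 of 30 higher and 1 lower, the interferon genes 1 of 24 higher and 0 lower, and the NF-kB genes 2 of 16 higher and 1 lower. In the FOXO list of 25 and the metallothionein list of 10, none was called. PPARA, a fasting-responsive nuclear receptor in liver, had 607, 614 and 517 normalised reads at 24 h, against 589, 545 and 602 at 12 h (0.00, adjusted p = 0.9972). TXNIP, which rises with glucose through MondoA, had 1035, 889.9 and 662 reads at 24 h, against 740.3, 633 and 541 at 12 h (0.38, SE 0.21, adjusted p = 0.2616). In both genes the groups overlapped. Of 22 clock genes, 2 were higher. The clock kinase CSNK1E had 597, 635 and 492 reads at 24 h, against 431, 273 and 294 at 12 h (0.68, SE 0.11, adjusted p = 0.0004683), and the output factor TEF had 301, 312 and 281 reads at 24 h, against 176, 185 and 212 at 12 h (0.49, SE 0.11, adjusted p = 0.005107). Of 15 polyamine genes, 1 was higher and 2 lower, with a median of -0.09. The higher one was SAT1, which acetylates polyamines for export, had 1215, 1352 and 1314 reads at 24 h, against 969, 795 and 679 at 12 h (0.63, SE 0.14, adjusted p = 0.00445). EIF5A, the translation factor that carries hypusine made from spermidine, had 18135, 18884 and 18114 reads at 24 h, against 23798, 21614 and 23008 at 12 h (-0.31, SE 0.08, adjusted p = 0.01819). AMD1, which makes the aminopropyl donor of polyamine synthesis, had 3754, 3888 and 3734 reads at 24 h, against 4395, 4378 and 4686 at 12 h (-0.24, SE 0.07, adjusted p = 0.02146). The groups were separate in all 3 genes. EIF5A lost its call without replicate 1 or 3 at either time, with adjusted p of 0.05619 to 0.07666, and AMD1 lost it without replicate 3 at 12 h and without replicate 1 or 3 at 24 h, with adjusted p of 0.06894 to 0.1128. AMD1 was not called after a correction for G+C content.

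The largest single increases outside the mitochondrial genome included genes of low or moderate level. FRMD1, a FERM-domain protein at chromosome 6, position 168053095 to 168093056, had 216, 206 and 179 normalised reads at 24 h, against 74.4, 35.7 and 23.2 at 12 h (1.33, SE 0.15, adjusted p = 2.345e-06). C11orf96 had 528, 594 and 371 reads at 24 h, against 266, 148 and 119.7 at 12 h (1.20, SE 0.20, adjusted p = 0.0003894). KRTAP19-1, of the hair keratin-associated family, had 1355, 1202 and 1126 reads at 24 h, against 618, 672 and 638 at 12 h (0.85, SE 0.10, adjusted p = 6.07e-06). EBF4, of the early B-cell factor family, had 506, 469.6 and 474 reads at 24 h, against 256, 267 and 256 at 12 h (0.73, SE 0.07, adjusted p = 8.694e-07), with little spread within either time. The inositol phosphatase INPP5D had 248, 195 and 169 reads at 24 h, against 108, 89.2 and 97.4 at 12 h (0.70, SE 0.10, adjusted p = 0.000109). Each kept its call without any library.

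Among the decreases, ID3 and ID2, which block basic helix-loop-helix factors and answer to BMP signalling, stood out in their list, where 1 of 23 was higher and these 2 were lower. ID3 had 378, 338 and 399 normalised reads at 24 h, against 717, 638 and 626 at 12 h (-0.71, SE 0.15, adjusted p = 0.003859). ID2 had 2008, 2045 and 2254 reads at 24 h, against 3431, 3144 and 2869.8 at 12 h (-0.56, SE 0.10, adjusted p = 0.001122). POLR2L, a small subunit shared by the RNA polymerases, had 1145, 1230.3 and 1156 reads at 24 h, against 1935, 1592 and 2006 at 12 h (-0.61, SE 0.08, adjusted p = 3.046e-05). CCAR1, a coactivator of cell cycle and apoptosis genes, had 2107, 2153 and 2333 reads at 24 h, against 2924, 3574 and 3359.7 at 12 h (-0.56, SE 0.09, adjusted p = 0.0002245). BCLAF1, a nuclear protein tied to RNA processing, had 4562, 4666 and 5020.1 reads at 24 h, against 5913, 7309 and 7963 at 12 h (-0.55, SE 0.10, adjusted p = 0.001239). In all of these the 24 h libraries were below the 12 h libraries. Such separation was a condition of the rule that named the largest changes, so it is no further result about genes named by it. List members were named for the lowest adjusted p among called genes. Of the 2039 called genes 2011 were separate, so separation of named list members adds little. Genes so picked are also more likely to keep their call when a library is left out.

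Most of the strongest decreases were in genes with a near-identical copy elsewhere, and their assignment is uncertain. EIF3CL, which is 99.9% identical to EIF3C, had 34.6, 44.6 and 36.9 normalised reads at 24 h, against 166, 162 and 205 at 12 h (-1.24, SE 0.12, adjusted p = 2.783e-07). SMN1, whose copy SMN2 differs little, had 14.6, 8.40 and 14.8 reads at 24 h, against 62.3, 76.1 and 66.8 at 12 h (-0.94, adjusted p = 2.345e-06), and NOMO1, 99.5% identical to NOMO2, differed by -0.61. Pseudogenes showed the same on a larger scale. Of 1043 tested, 169 were lower (16.2%) and 22 higher. Where the pseudogene was at least 95% identical over at least 80% of its length to a coding transcript of a gene with 5000 reads or more, 100 of 196 were lower (51.0%). With a less abundant coding gene it was 40 of 197 (20.3%), and for pseudogenes less alike it was 3 of 97 (3.1%) and 3 of 319 (0.9%). The 146 lower pseudogenes with a coding match together had 8857.3, 8759.9 and 8305.0 reads at 24 h, against 19972.2, 19490.9 and 20314.9 at 12 h. Of their 106 tested coding matches, 18 were lower and 0 higher, with a median of -0.10.

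The 2 strongest of them show how alike the sequences are. RPL39P3 is a processed copy at chr6:73372927-73373313 of the ribosomal protein gene RPL39 at chrX:119786504-119791630, and over 156 aligned bases of their transcripts, which cover the RPL39 reading frame, there were 0 differences. PPIAP22 at chr21:18857737-18858476 is a copy of PPIA, the cyclophilin A gene at chr7:44796681-44803117, with 2 differing bases in 498, and 120 bases that hold both are shown with these in capitals. Names and positions are of build GRCh38.p14 and transcripts of GENCODE 29.
RPL39P3: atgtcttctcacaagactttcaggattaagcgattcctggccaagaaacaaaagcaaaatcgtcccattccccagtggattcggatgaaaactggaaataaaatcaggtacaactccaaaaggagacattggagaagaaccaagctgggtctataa
RPL39: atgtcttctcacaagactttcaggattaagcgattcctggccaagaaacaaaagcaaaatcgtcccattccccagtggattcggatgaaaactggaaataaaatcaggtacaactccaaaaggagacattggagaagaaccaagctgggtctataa
PPIAP22: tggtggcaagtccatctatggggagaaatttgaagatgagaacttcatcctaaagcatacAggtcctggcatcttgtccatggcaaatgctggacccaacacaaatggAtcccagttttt
PPIA: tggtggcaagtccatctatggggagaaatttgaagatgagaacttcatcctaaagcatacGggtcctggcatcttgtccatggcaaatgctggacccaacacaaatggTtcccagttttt

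RPL39P3 had 79.2, 95.8 and 61.8 normalised reads at 24 h, against 467.8, 430.1 and 441.6 at 12 h (-1.79, adjusted p = 5.275e-10). RPL39 had 10798.4, 12802.3 and 8887.4 reads at 24 h, against 13127.6, 11278.7 and 10883.5 at 12 h (-0.13, adjusted p = 0.6421), an overlapping range. PPIAP22 had 415.2, 353.4 and 355.3 reads at 24 h, against 980.2, 1066.9 and 1107.8 at 12 h (-1.31), while PPIA had 31542.2, 32659.0 and 34267.7 reads at 24 h, against 31649.0, 33008.7 and 31448.0 at 12 h (0.03). A pseudogene with no differing base can be told from its parent only by flanking sequence, so a read's assignment between them depends on read length and on the mapping settings. The same 146 pseudogenes summed to 9009.4 to 10566.5 reads in the methionase 24 h libraries, against 17726.1 to 23516.4 in the methionase 12 h libraries, and to 8907.5 to 11278.5 reads in the libraries with Vps34IN1, all taken at 24 h. In 110 of the 146, all 9 other 24 h libraries were below the 3 methionase 12 h libraries. Whether reads, libraries or RNA differed between the harvests in a way that moves such reads was not tested. Without pseudogenes, 793 genes were higher and 1048 lower, and 4 passed a log2 difference of 1 in place of 16.

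**Figure D3:**
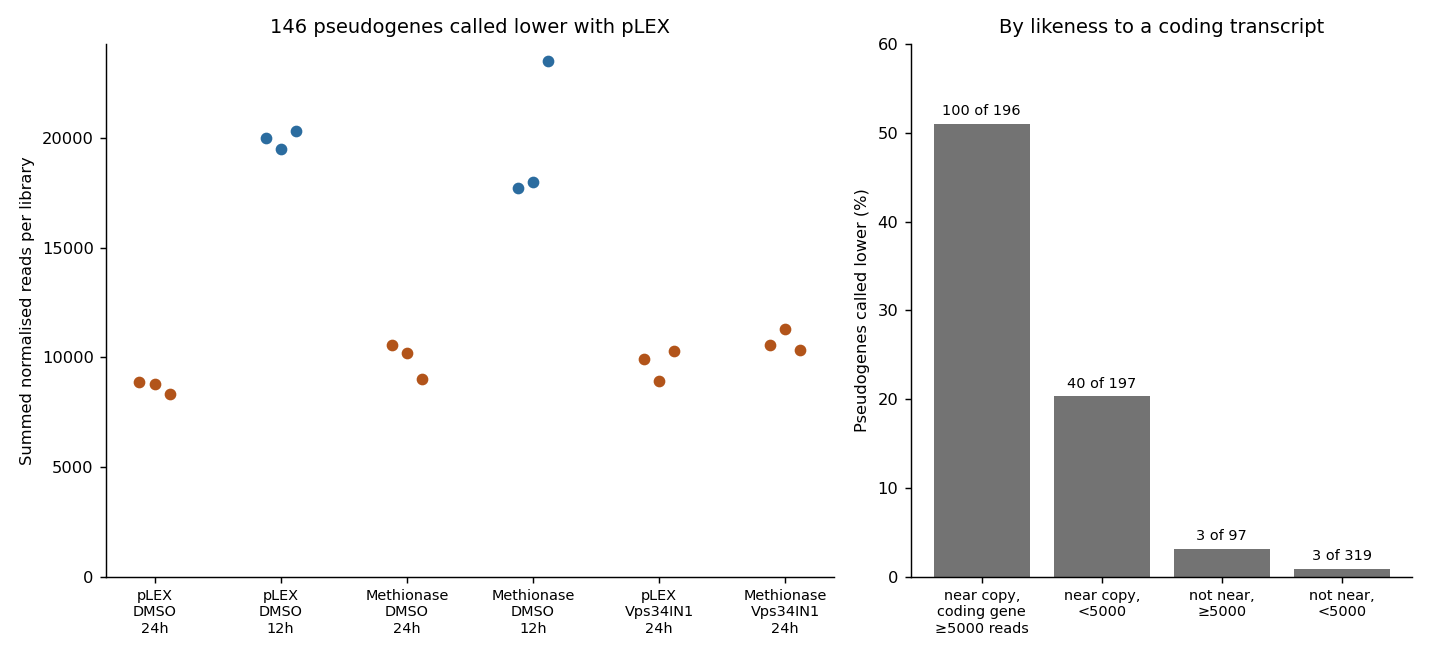
Left, summed normalised reads of the 146 pseudogenes called lower that have a coding match, one point per library. The empty vector libraries lie at 8305.0 to 8857.3 reads at 24 h, against 19490.9 to 20314.9 at 12 h, and the other 24 h libraries also lie below both 12 h groups. Right, percent of tested pseudogenes called lower by likeness to a coding transcript and reads of that gene, from 51.0% of near copies of abundant genes to 0.9%.

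Differences also followed base composition. Across 13410 coding genes, the log2 difference and the G+C content of the transcript had a Spearman correlation of 0.42, given as a description since genes share libraries. In the sixth of genes lowest in G+C (30.2% to 40.2%), 0.76% were higher and 13.8% lower, and in the highest sixth (59.6% to 76.8%), 12.1% were higher and 1.25% lower, against 4.83% higher and 7.65% lower among all 13540 coding genes. Single libraries set against the mean of all 18 had correlations of 0.07 to 0.21 in the 24 h libraries and -0.28 to -0.16 in the 12 h libraries. The methionase libraries in DMSO had -0.06 to 0.34 at 24 h and -0.25 to -0.16 at 12 h, so every 24 h library in DMSO was above every 12 h library with either vector. The libraries with Vps34IN1, also of 24 h, had -0.13 to 0.40. After a correction for G+C content within each library, 733 genes were higher (4.61%) and 983 lower (6.18%) of 15900, with 512 and 780 of them shared with the uncorrected calls. Chaperone genes then had 15 lower and 1 higher, proteasome genes 14 lower, ATF4 genes 9 higher and hypoxia genes 6 higher. Of 142 called genes named by rule with a G+C value, 18 were not called after it, among them ARC, AMD1, BCL2L1, NFKB2, PLK3 and SREBF1. Long non-coding RNAs had 127 of 2604 higher (4.88%) and 5 lower (0.19%), against 4.61% and 6.88% of all genes tested.

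**Figure D4:**
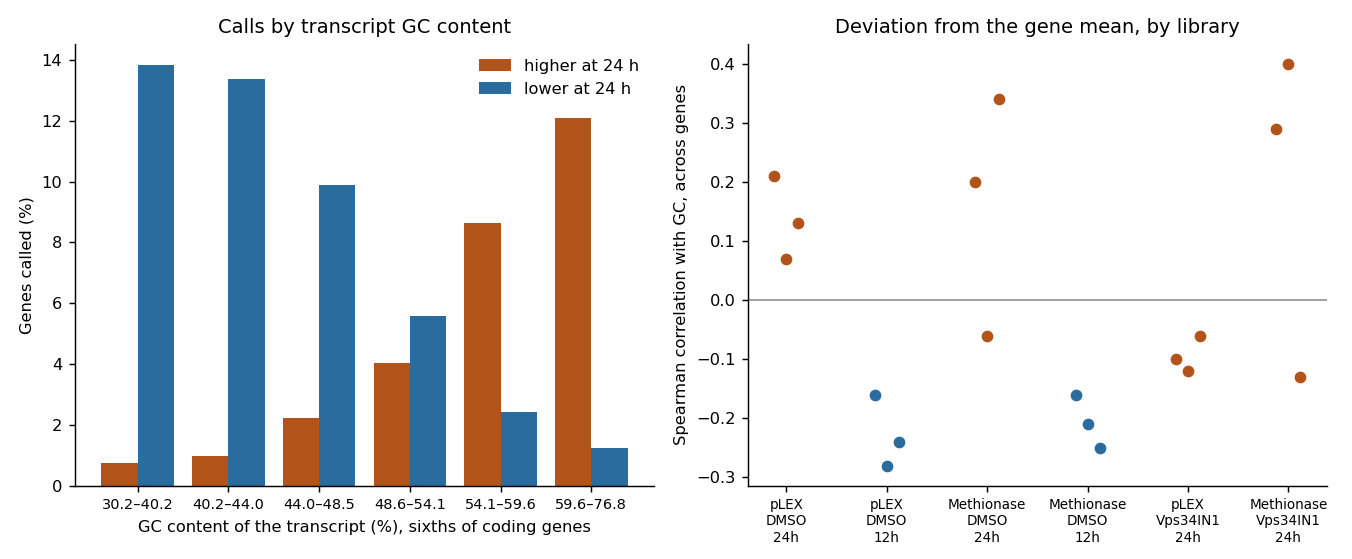
Left, percent of coding genes called higher and lower at 24 h in sixths of transcript G+C content: 13.8% are lower in the lowest sixth and 1.25% in the highest. Right, Spearman correlation across genes between G+C content and the deviation from the gene mean, one point per library; empty vector libraries lie at 0.07 to 0.21 at 24 h and at -0.28 to -0.16 at 12 h.

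The same change over time was read in cells with MethionaseNLS in DMSO, whose 6 libraries are all different ones. There 3275 genes were higher (18.4%) and 3783 lower (21.3%). Of the 2039 genes called with the empty vector, 1859 had the same sign with methionase and 1328 were also called that way. The share with the same sign among all genes tested is not given here, so the 1859 have no background to be read against. By an interaction test at an adjusted p below 0.05, 253 of the 2039 differed between the vectors. That test called 2071 of all genes (11.7%). Of the 15 proteasome calls, all had the same sign, 11 were also called and 1 differed by the interaction. The ribosome biogenesis calls had 12 of 13 of the same sign and all of these called. Of the 11 calls of the ATF4 list, 6 had the same sign with methionase, 3 were also called and 4 differed by the interaction, and with methionase 7 list members were higher and 17 lower. Of 21 mitotic calls, 16 had the same sign, 11 were also called and 8 differed. Of 16 chaperone calls, 10 had the same sign, 7 were also called and 2 differed.

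**Figure D5:**
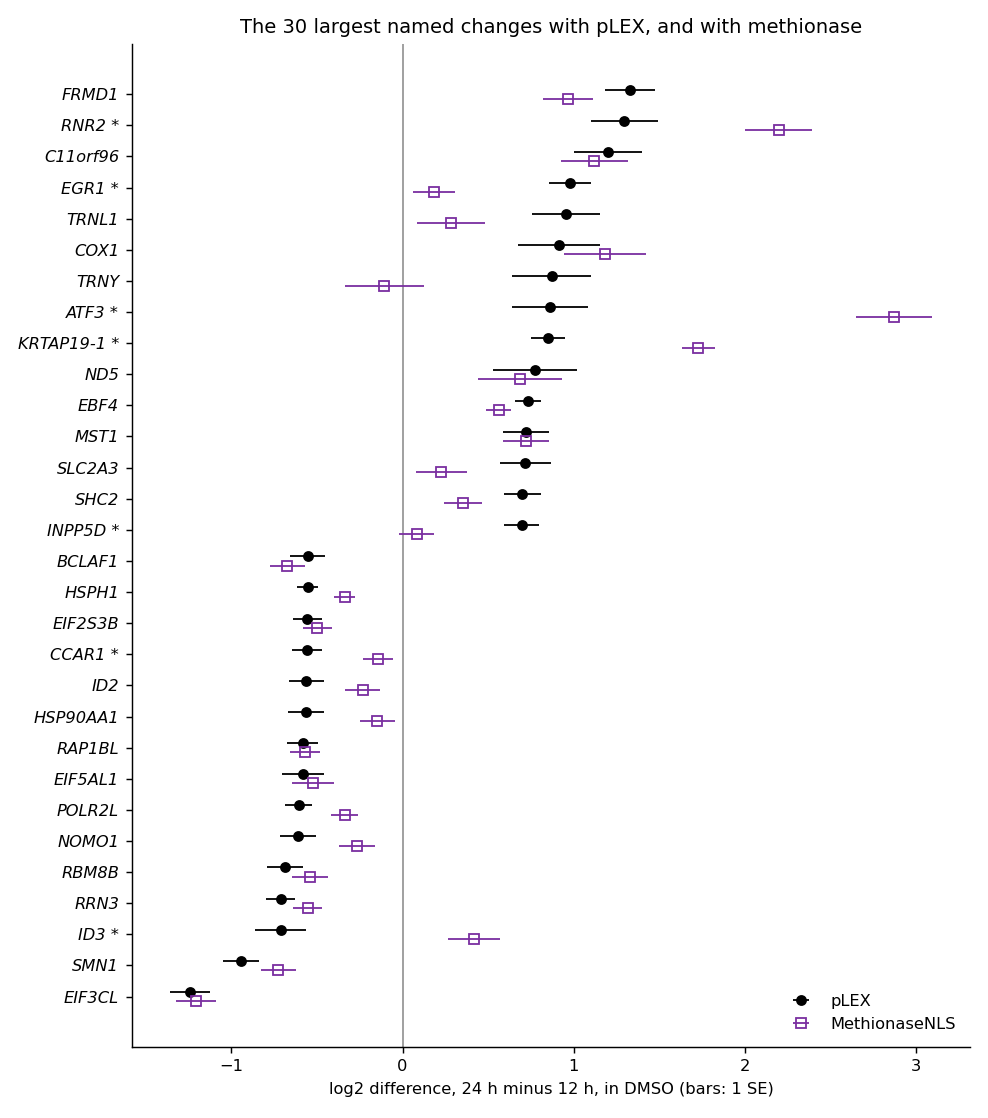
Log2 differences, 24 h minus 12 h in DMSO, of the 30 genes named for the largest changes, with filled points for pLEX, open squares for MethionaseNLS and bars of 1 SE; an asterisk marks genes with a called interaction. In 28 of the 30 the sign is the same with both vectors, and 7 carry an asterisk.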

How the data were processed

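Libraries of HEK293T poly-A RNA were made with a dUTP kit and read on a DNBSEQ-G400 instrument, per the labels' protocols. STAR 2.7.10b, featureCounts, DESeq2, limma and build hg38 were used, per the submitters' processing notes; their roles, the annotation, the strand setting and any gene filter are not given in the sources used here, and reads of genes that overlap on opposite strands may be mixed. What the authors deposited is a single table of variance-stabilised log2 values, the lowest being 5.45. Of its 37097 lines, 1 named no gene, held 0.0% to 0.0022% of a library's reads and was left out. Undoing the transformation gave whole read counts for 100% of values within 0.01. All libraries carried the same batch label. The labels do not say that replicates were separate cultures, so p-values reflect only the spread among these libraries, which may be technical. Replicates of a group differed by more than counting noise.

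A linear model was fitted to the deposited log2 values with limma 3.58.1 in R 4.3.3 over all 18 libraries, with 1 mean per group and a variance trend, for 17755 of 37096 genes whose mean was at least 0.5 above the lowest value. Benjamini-Hochberg adjustment ran over all of them, and a gene was called below 0.05. The fit was tested on simulated counts in which genes varied independently and no library carried a shift with G+C content. Such a test cannot show how the calls behave where libraries differ in that way. Genes were matched by symbol to the GRCh38.p14 table (36162 of 37096). Copies were found with blastn 2.17.0.

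The gene lists, the comparison and the rules were chosen with earlier results of these data known. Named genes were the 15 largest increases and decreases among called genes without overlap or clone-type names. Each list added up to 4 called members in its main direction, by lowest adjusted p, and up to 2 in the other. PIK3C3, PPARA, MAT2A and TXNIP were also named. Settings tried were other filters, scalings, weights, a replicate block and each library left out. The limma voom fit, the fit without pseudogenes and the corrections for G+C content and length were added after seeing the data. Exons, splicing and variants were left out, since the table has 1 value per gene.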

Additional observations from a re-analysis of the deposited data

Results flagged for a closer look

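Among the 30 genes with the largest changes, 7 changed over time differently with the empty vector and with MethionaseNLS, by limma's interaction test with adjustment over all genes tested. The values are the empty vector's log2 difference minus that of methionase. For EGR1 the difference was 0.80 (adjusted p = 0.003633), with 0.98 in empty vector cells and 0.18 in methionase cells. INPP5D gave 0.61 (adjusted p = 0.006711), with 0.70 in empty vector cells and 0.08 in methionase cells. In both genes the increase was larger with the empty vector. ATF3 gave -2.01 (adjusted p = 0.000194), with 0.86 in empty vector cells and 2.87 in methionase cells. KRTAP19-1 gave -0.88 (adjusted p = 0.0002083), with 0.85 in empty vector cells and 1.73 in methionase cells. RNR2 gave -0.91 (adjusted p = 0.03437), with 1.29 in empty vector cells and 2.20 in methionase cells. These 3 were higher at 24 h with either vector, and by more with methionase. ID3 gave -1.13 (adjusted p = 0.001208), with -0.71 in empty vector cells and 0.42 in methionase cells, so the signs were opposite. CCAR1 gave -0.42 (adjusted p = 0.02877), with -0.56 in empty vector cells and -0.14 in methionase cells.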

How the results depend on the processing

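The counts of 818 higher and 1221 lower genes became 479 and 811 with no filter on low values, 2319 and 2867 with array quality weights, and 1386 and 2121 in a fit of the 6 libraries alone. Leaving out a library gave 278 to 686 higher and 520 to 1010 lower. Quantile normalization gave 830 and 840, and equal library medians 640 and 1668, so that the higher share of the calls was 49.7% and 27.7% in place of 40.1%. The number past a log2 difference of 1 was 278 by voom on recovered counts, 4 without pseudogenes and 17 to 21 without a library, against 16. The interaction called 3617 genes with array quality weights and 1276 to 2413 without a library, against 2071; it was 1276 without MethionaseNLS replicate 1 at 12 h and 1325 without pLEX replicate 1 at 24 h. The cause of these shifts was not tested. A block for replicate number gave 805 higher and 1166 lower and ended the calls of MYC, PLK3, NDUFV1, MLXIPL and DANCR. Deviations from the group means had correlations of 0.157, -0.308 and 0.025 between same-numbered 24 h and 12 h libraries. Differently numbered ones had -0.335 to 0.352, as wide a range, so this check cannot decide whether the numbers pair the samples. PIK3C3 had a positive sign after correction for G+C content (0.048, or 0.083 with length), and PPARA was 0.026 after quantile normalization, 0.027 after correction for G+C content, 0.065 with length, 0.042 with array quality weights, and -0.039 to 0.069 without a library; neither was called in any of these. TXNIP was called with array quality weights (adjusted p = 0.01744) and in the fit of the 6 libraries (0.03822). Of 147 called genes named by rule, 70 kept their call when any library was left out and 77 lost it at least once, with adjusted p up to 0.2226, and 0 changed sign under any setting. Genes with few reads are limited by depth, and the deposited scale understates their change.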
